A study of Homo sapiens with 39 samples.

Results

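The data described here compared U87-MG cultures 4 days after an acute dose of 16Gy with sham-irradiated (0Gy) cultures of the same day, 3 samples against 3 of the 39 samples in the series. The samples were chosen by their labelled dose and day alone. U87-MG is an established human glioblastoma cell line grown as a monolayer in serum-containing medium, and gamma rays came from a Cs-137 source. Cells were plated overnight, irradiated or handled as sham controls in parallel, left in the dish and harvested on day 4, and total RNA was read on Illumina bead arrays (HumanHT-12, version 4). The rest of the series holds 0, 8 and 16Gy on days 1, 4 and 6 and on day 35, when regrown survivors were sampled. All groups come from 1 cell line, so differences between tumors were not sampled. Each sham and each irradiated group of days 1, 4 and 6 comprised 3 samples, and on day 4 the first sample of each group was a mean of 2 technical runs.

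High-dose radiation breaks DNA in nearly every cell of such a culture. The p53 protein then raises CDKN1A, which stops the cell cycle, and cells that stay alive but no longer divide often begin to secrete cytokines, chemokines, proteases and growth factors, a program largely driven by the transcription factor NF-kB and by interleukin-1 acting back on its own cell. Genes of lipid synthesis answer to SREBP transcription factors, genes of amino acid supply to ATF4, and genes of antioxidant defense to NRF2.

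Between 16553 and 19561 of the 47300 probes lay above background, which was set at 6.79 to 6.89 on the log2 scale from probes of olfactory receptor genes. Across the 11296 genes tested, replicates correlated at 0.982 to 0.991 (these are correlations across genes, which are not independent replicates) and samples of different dose at 0.961 to 0.981. The 16Gy sample numbered 3 deviated most from its group, with a standard deviation of 0.174 over genes against 0.123 to 0.151 in the other 5 samples. Of 16 genes typical of mesenchymal glioma cells, 15 were above background on all 6 arrays, VIM, CD44 and LGALS1 among them. The exception, the astrocyte filament gene GFAP, was above background on none. CDKN2A, which this line has lost, was above background on none either, and MTAP, deleted with it, on 1 of 3 arrays in each group. The leukocyte gene PTPRC was above background on none of the 6 arrays. Over 7 leukocyte markers the mean log2 signal was 6.80 to 6.83 at 16Gy and 6.77 to 6.79 at 0Gy, and the highest of them, CD14, averaged 7.56 at 16Gy and 7.22 at 0Gy. The mean signal at 16Gy and at 0Gy was 6.67 to 6.74 and 6.56 to 6.67 over 6 endothelial markers, 6.58 to 6.62 and 6.62 to 6.65 over 7 epithelial markers, 7.20 to 7.28 and 7.19 to 7.26 over 6 neuronal markers, and 6.68 to 6.88 and 6.71 to 6.74 over 6 oligodendrocyte markers. None of the leukocyte, endothelial, epithelial, neuronal and oligodendrocyte markers was called. Of the glioma genes 1 was called higher, FN1 (0.77), and none with the mean over all probes of a gene. The part of these markers in the results was not tested. Arrays of bulk RNA cannot tell a change in the number of cells of a kind from a change in RNA per cell.

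At 16Gy, genes for secreted inflammatory proteins were the most strongly raised, by up to 12.1-fold. By the brightest probe of each gene, the largest falls were in SCD (3.43-fold), a fatty acid desaturase, and the interferon-stimulated gene IFI44L. Next came the kinase gene RPS6KA2, the serine synthesis gene PSAT1 and the HMG-box gene TOX2. A gene was called when its Benjamini-Hochberg adjusted p over all genes tested was under 0.10 (limma) and its fold change over 1.5. Of the 11296 genes, 527 were called (4.67%), 350 of them higher at 16Gy (3.1%) and 177 lower (1.57%). The changes were uneven in size, since 111 of the higher genes exceeded a log2 fold change of 1 and 19 exceeded 2, while 20 of the lower genes passed -1. The samples of the 2 groups did not overlap for 515 of the 527 called genes, set against 27.8% of all genes tested. The calls were made on the same values, so the first share was largely set by the calling rule and is no separate evidence. The median log2 fold change of all genes was -0.03, and the median standard error was 0.13. P-values measure only the spread between these samples.

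**Figure D1:**
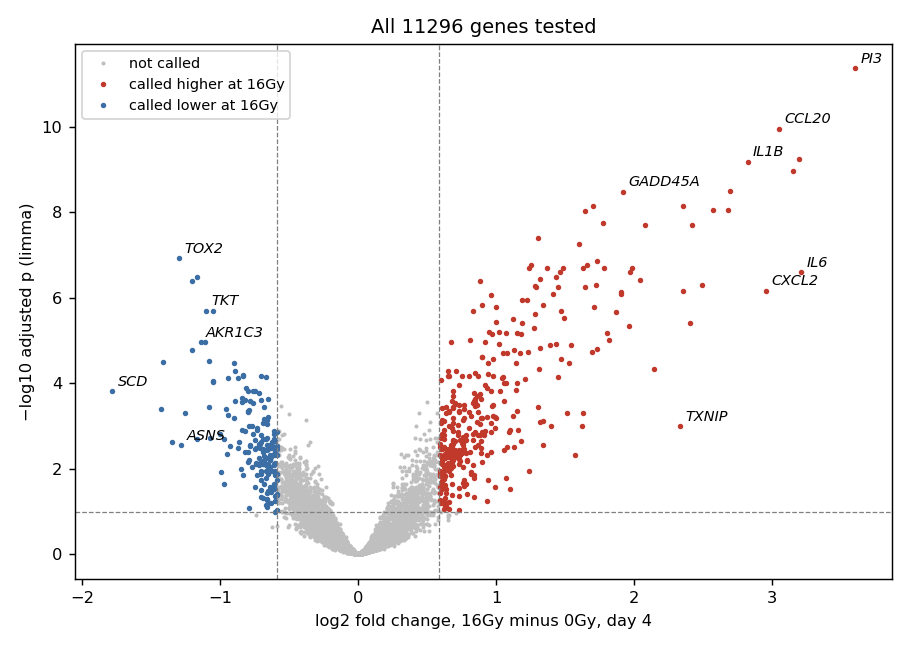
Each point is 1 of the 11296 genes tested, with the log2 fold change of 16Gy against 0Gy on day 4 on the x axis and −log10 of the limma adjusted p on the y axis. Dashed lines mark the thresholds of 1.5-fold and adjusted p of 0.10; the 350 called rises reach farther from 0 than the 177 called falls.

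PI3 showed the largest rise of all. It encodes elafin, a secreted inhibitor of neutrophil elastase. Its log2 signals were 12.35, 12.77 and 12.19 at 16Gy, against 9.56, 9.18 and 7.76 at 0Gy. All 16Gy samples were thus far above all sham samples, and the sham sample numbered 3 was the lowest. The log2 fold change was 3.60 (standard error 0.22, adjusted p = 4.3e-12), or 12.1-fold. Leaving out that low sham sample gave 3.34.

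The interleukin-1 (IL1) family comprises the agonists IL1A and IL1B, the antagonist IL1RN, the IL36 cytokines with their own antagonist IL36RN, and IL33 and IL18. Of its 9 tested members, 8 were called higher and 0 lower, and their median log2 fold change was 0.96. With the mean over all probes of a gene, 6 were called higher and the median was 0.63. IL1B measured 14.09, 14.36 and 13.83 at 16Gy and 11.49, 11.74 and 10.58 at 0Gy. Its log2 fold change was 2.82 (standard error 0.22, adjusted p = 6.6e-10). IL1A, the form that acts from the cell surface or after release, measured 9.11, 9.61 and 9.37 at 16Gy and 7.48, 7.48 and 6.89 at 0Gy. The antagonist rose with the agonists: IL1RN had log2 signals of 8.77, 9.01 and 8.87 at 16Gy and 7.34, 7.76 and 6.42 at 0Gy, where 2 of 3 arrays were above background. IL36RN rose by 1.82 (standard error 0.25, adjusted p = 9.8e-06) and IL36B by 0.77 (standard error 0.22, adjusted p = 0.025), a call that was lost without the sham sample numbered 3 (0.59, adjusted p = 0.18). IL1F10, a member of the family with an uncertain receptor, averaged 7.53 at 16Gy and was above background on no sham array, and was at least 1.63-fold higher. IL36G was above background on 2 of 3 arrays at 16Gy and on none at 0Gy, and was at least 1.2-fold higher; its fold fell under the threshold without the 16Gy or sham sample numbered 1 or the sham sample numbered 2 (0.53 to 0.58). IL33, the alarmin, rose by 0.71 (standard error 0.11, adjusted p = 5.1e-05). The remaining member, IL18, was bright and measured 12.15, 12.29 and 12.57 at 16Gy and 12.19, 11.99 and 11.90 at 0Gy, with overlapping groups and an adjusted p of 0.19.

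Apart from IL18 and IL33, these genes lie side by side on chromosome 2. Of the 9 protein-coding genes from IL1A to IL1RN in the RefSeq order, 7 were tested and called higher, whereas IL37 and IL36A did not pass the filter on dim genes. IL36G and IL1F10 were above background on no sham array of day 4. IL1F10 met the filter in the 16Gy group of this comparison, on 3 of 3 arrays. IL36G, on 2 of 3 arrays there, passed it through groups outside the comparison. The count of 7 thus depends in part on that filter. Among the receptors there was no call: 0 of 4 tested IL1 receptor genes passed in either direction, and their median was -0.00. The count was 1 without the 16Gy or without the sham sample numbered 3. IL1R1, the signaling receptor, had log2 signals of 7.14, 6.82 and 6.73 at 16Gy and 6.83, 6.79 and 6.93 at 0Gy, near background in both groups. The decoy receptor IL1R2 was above background on no array. IL1RL1, the receptor of IL33, was above background on no sham array and was at least 1.2-fold higher at 16Gy (adjusted p = 0.016). Its measured log2 difference of 0.55 was under the fold threshold, so it was not called. A lower limit cannot show whether the true fold passed it.

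Among CXC chemokines, several of which draw neutrophils through CXCR2, 4 of 6 tested members were called higher, and the median over all 6 was 1.90. CXCL8, interleukin-8, measured 13.72, 14.52 and 13.86 at 16Gy and 12.07, 12.42 and 11.20 at 0Gy. The difference of 2.14 (standard error 0.33, adjusted p = 4.6e-05) left the groups well apart. CXCL2 gave 11.32, 12.01 and 11.74 at 16Gy and 9.66, 8.50 and 8.07 at 0Gy. CXCL1 gave 9.42, 9.80 and 10.10 at 16Gy and 7.56, 7.35 and 6.35 at 0Gy, the last below background. CXCL5 was above background on no sham array, averaged 8.29 at 16Gy, and was at least 2.77-fold higher. CXCL3 and CXCL6, which lie between these genes on chromosome 4, were above background on none of the 6 arrays. They did not pass the filter on dim genes, while CXCL5 met it on 3 of 3 arrays at 16Gy. The count of called CXC chemokines thus depends in part on that filter. PPBP, another CXCR2 ligand of the same cluster, had a log2 fold change of 0.55 (adjusted p = 0.018), short of the fold threshold.

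The CC chemokines attract monocytes and lymphocytes, and 6 of 7 tested CC and CX3C genes were called higher, with a median of 1.62. CCL20, the ligand of CCR6, measured 9.68, 9.75 and 10.00 at 16Gy against 6.98, 7.13 and 6.17 at 0Gy, a difference of 3.05 (standard error 0.22, adjusted p = 1.1e-10). CCL3 gave 9.61, 10.17 and 10.15 at 16Gy and 7.16, 7.15 and 6.18 at 0Gy. For both genes 2 of 3 sham arrays were above background. CCL3L3 and CCL3L1, near-identical copies of CCL3 whose probes may not tell the copies apart, gave log2 fold changes of 3.19 and 2.57 and are not independent of it. CCL2, the main monocyte attractant, was already expressed in sham cells and measured 10.53, 11.49 and 11.25 at 16Gy and 10.11, 9.76 and 8.52 at 0Gy. CCL5 rose by 1.6 (standard error 0.16, adjusted p = 5.6e-08) and CCL26 by 0.78 (standard error 0.18, adjusted p = 0.0042).

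**Figure D2:**
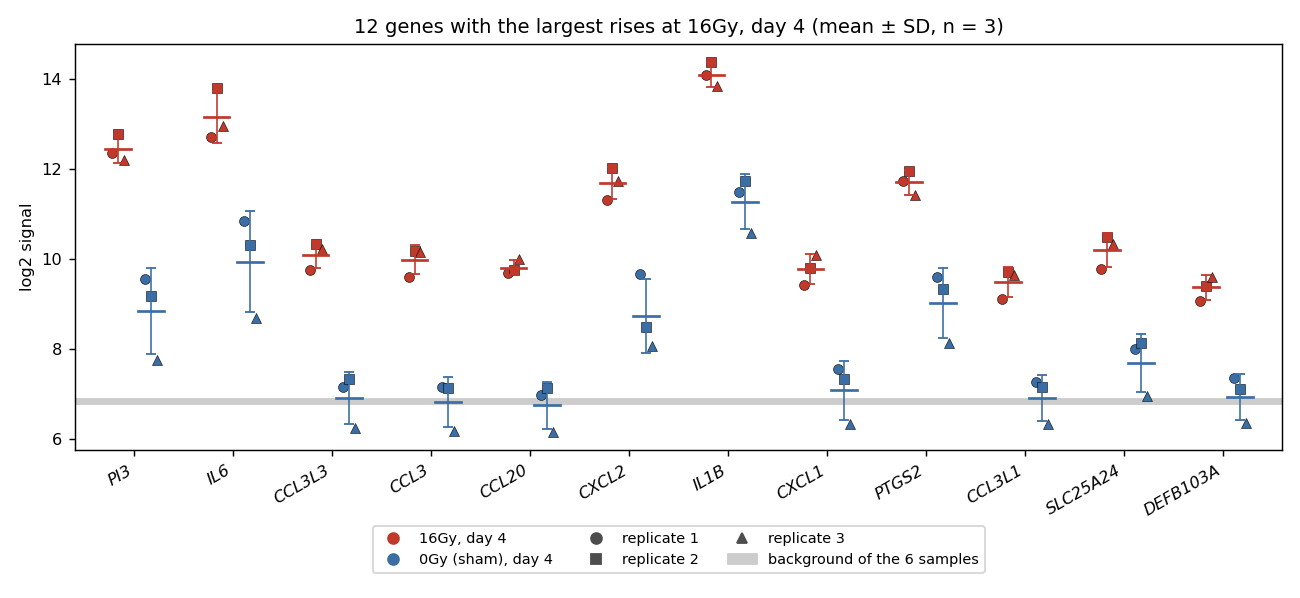
Log2 signal (y axis) of the 12 genes with the largest rises on day 4, with 16Gy samples in red to the left and 0Gy samples in blue to the right of each gene; bars are group means ± SD (n = 3), symbols are replicate numbers, and the grey band is the background of the 6 samples. For all 12 genes every 16Gy sample lies above every 0Gy sample, and the 0Gy sample numbered 3 is the lowest.

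The promoters of some chemokine and interleukin genes called higher are shown because each holds a run of bases that NF-kB proteins are known to bind. They do not follow the size of the rise: CCL3 and IL1B rose more than CXCL8 and are not shown. Each sequence runs from 250 bases before to 50 bases after the RefSeq gene start in build GRCh38.p14, written along the gene's strand, with matches to GGNNTTTCC (searched on both strands) in capitals. CXCL8 lies at chr4:73740319-73740618 (plus strand), CXCL1 at chr4:73869143-73869442 (plus strand), CXCL2 at chr4:74099146-74099445 (minus strand), CCL20 at chr2:227813592-227813891 (plus strand) and IL6 at chr7:22726950-22727249 (plus strand).
CXCL8: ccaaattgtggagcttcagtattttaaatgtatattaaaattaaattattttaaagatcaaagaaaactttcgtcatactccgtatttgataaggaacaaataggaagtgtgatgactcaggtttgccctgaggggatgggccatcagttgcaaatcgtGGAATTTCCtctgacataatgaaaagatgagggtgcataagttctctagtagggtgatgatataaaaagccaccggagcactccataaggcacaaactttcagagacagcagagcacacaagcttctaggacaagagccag
CXCL1: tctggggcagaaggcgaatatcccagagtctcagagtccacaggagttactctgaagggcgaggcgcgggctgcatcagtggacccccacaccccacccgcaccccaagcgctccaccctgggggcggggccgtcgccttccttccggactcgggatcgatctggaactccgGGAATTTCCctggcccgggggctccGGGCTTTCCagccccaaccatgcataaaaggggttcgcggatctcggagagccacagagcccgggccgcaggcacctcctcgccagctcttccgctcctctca
CXCL2: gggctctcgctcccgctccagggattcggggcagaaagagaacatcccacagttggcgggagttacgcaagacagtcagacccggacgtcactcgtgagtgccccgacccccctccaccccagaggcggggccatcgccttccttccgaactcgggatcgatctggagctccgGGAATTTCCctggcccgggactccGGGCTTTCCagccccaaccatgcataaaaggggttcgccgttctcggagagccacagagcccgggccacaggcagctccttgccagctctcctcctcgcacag
CCL20: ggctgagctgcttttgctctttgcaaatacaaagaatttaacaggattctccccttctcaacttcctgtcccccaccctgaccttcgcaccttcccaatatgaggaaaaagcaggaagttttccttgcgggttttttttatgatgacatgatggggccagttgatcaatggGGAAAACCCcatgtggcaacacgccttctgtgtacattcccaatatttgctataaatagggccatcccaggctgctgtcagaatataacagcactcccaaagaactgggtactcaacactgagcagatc
IL6: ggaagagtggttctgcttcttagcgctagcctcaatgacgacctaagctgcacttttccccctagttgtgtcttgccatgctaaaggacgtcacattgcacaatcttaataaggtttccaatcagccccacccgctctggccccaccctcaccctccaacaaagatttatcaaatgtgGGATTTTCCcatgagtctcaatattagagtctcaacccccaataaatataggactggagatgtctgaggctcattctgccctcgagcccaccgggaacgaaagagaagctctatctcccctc

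The match begins 91 bases before the gene start in CXCL8, 79 in CCL20, where it is on the opposite strand, and 72 in IL6. CXCL1 and CXCL2 each hold 2 matches, the first at 78 and 77 bases and the second at 53 bases in both. Matches occur in 6.26% of 27305 RefSeq promoters of the same length and in 6.68% of 9132 promoters of tested genes. They were found in 27 of 255 promoters of genes called higher (10.6%) and in 14 of 143 of genes called lower (9.79%). Not every called gene had a promoter in the table. Among the promoters on hand for called genes, 4 of 4 of CXC chemokines, 6 of 9 of the NF-kB list, 1 of 4 of CC chemokines and 0 of 7 of the IL1 family held one. A match in this window is a description of the sequence and no evidence of binding.

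IL6 and its relatives signal through the shared receptor chain IL6ST. IL6 itself had log2 signals of 12.70, 13.80 and 12.95 at 16Gy and 10.84, 10.30 and 8.69 at 0Gy, the widest spread among sham samples of the 12 largest rises. Its log2 fold change was 3.21 (standard error 0.36, adjusted p = 2.5e-07) and 2.77 without the sham sample numbered 3. LIF, which acts through the same chain, measured 9.80, 10.37 and 9.77 at 16Gy and 8.04, 7.80 and 7.06 at 0Gy. CSF3, the granulocyte growth factor, measured 11.22, 11.93 and 10.77 at 16Gy and 9.73, 9.07 and 7.94 at 0Gy. In all, 8 of 14 tested genes of this list were called higher and 0 lower, with a median of 0.60; IL24 rose by 1.64, IL11 by 1.21 and IL12A by 1.00. IL23A was above background on no sham array and was at least 1.37-fold higher, a call lost without the 16Gy sample numbered 3 (0.36) or the sham sample numbered 2 (0.58). IL6ST was called at 0.60 (adjusted p = 0.064) with overlapping groups, at 10.94, 10.31 and 9.94 at 16Gy and 9.57, 10.05 and 9.77 at 0Gy, and gave 0.27 without the 16Gy sample numbered 1, 0.49 without the sham sample numbered 1 and 0.64 (adjusted p = 0.13) without the sham sample numbered 3, in each case without a call. A second IL6ST probe above background gave 0.16.

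Of 22 tested NF-kB subunits and feedback regulators, 12 were called higher and 0 lower, and all 22 had a positive log2 fold change (median 0.62). NFKBIZ, a nuclear cofactor needed for IL6 induction, rose to 11, 11.43 and 10.74 at 16Gy, against 9.77, 9.21 and 8.48 at 0Gy. TNFAIP3, the ubiquitin-editing enzyme A20, measured 8.66, 9.03 and 8.90 at 16Gy and 7.98, 7.69 and 7.38 at 0Gy. ZC3H12A, an RNase that degrades IL6 mRNA, rose by 1.32 and the mitochondrial superoxide dismutase SOD2 by 1.30. NFKBIA rose by 0.70 (adjusted p = 0.0036). Of the subunits, NFKB1 was called at 0.61 (adjusted p = 0.022) and RELB at 0.63 (adjusted p = 0.01); NFKB2 gave 0.47 (adjusted p = 0.0083) and RELA 0.15 (adjusted p = 0.60), neither being called. Without the sham sample numbered 3 the calls of NFKB1 (0.38), RELB (0.50) and NFKBIA (0.53) were lost, as were those of NFKB1 without the 16Gy sample numbered 2 (0.54) and of RELB without the 16Gy sample numbered 3 (0.45).

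Prostaglandin synthesis was represented by 4 tested genes, 2 of them called higher. PTGS2, the inducible cyclooxygenase, measured 11.74, 11.95 and 11.41 at 16Gy and 9.60, 9.33 and 8.13 at 0Gy, and its fold change was 2.68 on the log2 scale (standard error 0.25, adjusted p = 9.0e-09). PTGES, the terminal prostaglandin E synthase, rose by 0.96 (adjusted p = 0.004). PTGS1, the constitutive cyclooxygenase, was above background on no array.

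Among 12 tested matrix metalloproteinases and their inhibitors, 6 were called higher and 1 lower. MMP3, stromelysin, measured 12.92, 13.28 and 12.89 at 16Gy and 11.78, 11.58 and 10.64 at 0Gy. MMP12, the macrophage metalloelastase, measured 8.57, 8.19 and 8.00 at 16Gy and was above background on no sham array, so that it was at least 2.7-fold higher. MMP10 was likewise above background on no sham array and at least 1.5-fold higher, and MMP1 gave 0.90 (adjusted p = 0.0068). MMP12 and MMP10 met the filter on dim genes on 3 of 3 arrays at 16Gy, so the count of 6 depends in part on that filter. The inhibitors were split, with TIMP1 (0.68) and TIMP3 (1.34) called higher and TIMP4 lower (-0.86, adjusted p = 0.0023). In the secreted protease inhibitor list, PI3, SPINK1 (1.32), TFPI2 (1.16), SERPINB7 (0.84) and SERPINB4 were the 5 of 11 called higher. SERPINB4, whose sequence is close to that of SERPINB3, was above background on 2 of 3 arrays at 16Gy and on none at 0Gy, and its call was lost without the 16Gy sample numbered 1 (0.44, adjusted p = 0.13). The urokinase receptor PLAUR was the only called gene of 5 in plasminogen activation, at 11.36, 11.43 and 11.45 at 16Gy and 10.66, 10.61 and 10.42 at 0Gy; 2 were called without the 16Gy or the sham sample numbered 1.

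EGF family ligands were called higher in 4 of 7 cases (median 0.83): HBEGF by 1.45, NRG1 by 1.10, EREG by 0.91 and TGFA by 0.83. With the mean over all probes of a gene, 3 were called higher and the median was 0.34. Second probes above background gave 1.23 for NRG1 and 0.56 for TGFA, the latter under the fold threshold. Of 13 vascular factors 4 were called higher, led by FGF2, which measured 10.58, 10.54 and 9.71 at 16Gy and 8.57, 8.72 and 8.36 at 0Gy. VEGFA, the main endothelial growth factor, was not called, at 11.08, 10.83 and 10.78 at 16Gy and 10.51, 10.56 and 10.62 at 0Gy (adjusted p = 0.25). In the TGF-beta list 5 of 16 genes were called higher, GDF15 (1.24), CCN1 (1.23), FST (1.19), CCN2 (0.90) and BMP2 (0.86), and ID3, an early target of bone morphogenetic proteins, was called lower at -0.62 with overlapping groups (-0.55 without the 16Gy and -0.48 without the sham sample numbered 1, not called). IGFBP3 and IGFBP1 rose by 1.63 and 1.51 and stood out among 4 called of 8 tested binding proteins of insulin-like growth factors, of which 2 were called without the 16Gy sample numbered 2. Among matrix and integrin genes 10 of 41 were called higher, or 6 with the mean over all probes of a gene, including the proteoglycan gene DCN (1.77), the crosslinking enzyme TGM2 (1.64) and the hyaluronan synthases HAS2 (0.98) and HAS3 (0.88). Immediate early genes, transcription factors and phosphatases of the growth factor response, had 10 of 30 called higher, among them ATF3 (1.98), FOSB (1.43) and DUSP1 (1.25), while EGR1 at 0.09 (adjusted p = 0.83) and MYC at 0.14 (adjusted p = 0.64) were not called.

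Of 29 tested p53 targets, 5 were called higher and 26 had a positive log2 fold change (median 0.33); without the 16Gy sample numbered 2 the higher genes were 8. GADD45A, a stress gene that binds PCNA, gave the largest change, at 11.45, 11.81 and 11.67 at 16Gy and 9.96, 9.70 and 9.50 at 0Gy, or 3.79-fold. CDKN1A, the p21 inhibitor of cyclin-dependent kinases, was bright and tightly measured, at 13.34, 13.42 and 13.36 at 16Gy and 12.79, 12.61 and 12.65 at 0Gy, a difference of 0.69 (standard error 0.12, adjusted p = 0.0002). The death receptor gene TNFRSF10B rose by 0.66 and the tetraspanin gene CD82 by 0.89. Further probes above background gave 0.14 and 0.51 for TNFRSF10B and 0.56 for CD82, all under the fold threshold. Those of GADD45A (1.92) and CDKN1A (0.63) passed it. With the mean over all probes of a gene, 4 p53 targets were called higher. MDM2, the ubiquitin ligase of p53, was not called at 0.21 (adjusted p = 0.20). The BCL2 family had 0 called of 12 tested.

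No gene of the mitotic machinery was called on this day. Of 47 tested mitosis genes 0 were called in either direction, 37 had a positive log2 fold change, and the median was 0.15. Without the sham sample numbered 1, 4 were called higher, and without the 16Gy sample numbered 1, 1 was. Their mean log2 signal was 8.69 to 8.90 at 16Gy and 8.41 to 8.81 at 0Gy. On day 1 it had been 9.16 to 9.42 at 16Gy and 9.58 to 9.82 at 0Gy, so the sham cultures themselves were lower on day 4 than on day 1. TOP2A measured 9.97, 9.91 and 10.11 at 16Gy and 9.72, 9.64 and 9.82 at 0Gy. Of 43 genes of DNA replication and nucleotide supply and of 41 of DNA repair 0 were called, with medians of -0.04 and -0.03; at an unadjusted p under 0.05, 2679 of all genes tested passed. Without the 16Gy sample numbered 1, 1 replication gene was called higher and 2 repair genes lower, and replication genes were called in 1 case without the 16Gy sample numbered 3 and in 2 without the sham sample numbered 1. CCNE1, the cyclin of the G1/S transition, was called at 0.63 (adjusted p = 0.015), though not without the 16Gy sample numbered 2 (0.47) or the sham sample numbered 3 (0.49). A second CCNE1 probe above background gave 0.13. Among chromatin and lamina genes HMGA1 (-0.83) and LBR (-0.67) were called lower, 2 of 19, and both calls were lost without the 16Gy sample numbered 3 (-0.64 and -0.45) and without the sham sample numbered 2 (-0.62 and -0.58), with 0 called lower also for the mean over all probes of a gene. LMNB1 measured 6.97, 6.94 and 6.92 at 16Gy and 7.06, 6.98 and 7.32 at 0Gy, with an adjusted p of 0.27.

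Of 32 tested histone genes, 9 were called higher. H2AC18 measured 10.93, 11.34 and 11.17 at 16Gy and 9.51, 9.0 and 9.01 at 0Gy, or 3.92-fold, and H2AC20 measured 10.43, 11.21 and 11.13 at 16Gy and 9.50, 8.90 and 8.66 at 0Gy. H2BC21 (1.37), H2AJ (1.31), H2BC5 (1.27), H2AC6 (1.03), H2BC12 (0.92), H1-2 (0.88) and H4C8 (0.81) were the others. H2AC18 has a near-identical neighbor, H2AC19, and H2AJ encodes a variant that is made outside S phase. The list held members that were not called too, and its median was 0.20.

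The largest fall was in SCD, the desaturase that makes oleic acid. Its log2 signals were 11.73, 11.12 and 10.50 at 16Gy and 12.58, 13.14 and 12.98 at 0Gy. The groups were apart, the log2 fold change was -1.78 (standard error 0.30, adjusted p = 0.00015), and expression was 3.43-fold higher in sham cells. Fatty acid genes were called lower in 5 of 18 cases and higher in 0, with a median of -0.27. Their mean log2 signal went from 8.89 on day 1 to 9.22 on day 4 at 0Gy and from 8.95 to 8.88 at 16Gy. FASN, fatty acid synthase, measured 11.35, 11.04 and 10.62 at 16Gy and 11.95, 11.82 and 12.13 at 0Gy. SREBF1, the transcription factor for this pathway, measured 8.22, 8.39 and 8.24 at 16Gy and 9.12, 8.92 and 9.13 at 0Gy. LPIN1 (-0.75) and FADS1 (-0.63) completed the 5. Neither was called without the 16Gy sample numbered 3 (-0.66 and -0.51) or the sham sample numbered 3 (-0.66 and -0.48), while LPIN1 was not called without the sham sample numbered 2 (-0.66), so that 3 of the 5 stayed called without either sample numbered 3. In cholesterol synthesis and uptake 4 of 19 were called lower and 16 had a negative log2 fold change (median -0.41). The mean log2 signal of this list went from 8.37 on day 1 to 8.81 on day 4 at 0Gy. At 16Gy it was 8.44 and 8.43. DHCR7, which makes cholesterol in the last step, fell by 0.99 (adjusted p = 0.012). ACAT2 (-0.68), HMGCS1 (-0.66) and SQLE (-0.59), the last with overlapping groups, were the others. When single samples were left out, 0 of 19 remained called without the 16Gy sample numbered 3, 2 without the 16Gy or the sham sample numbered 2, and 1 without the sham sample numbered 3; with the mean over all probes of a gene it was 1.

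**Figure D3:**
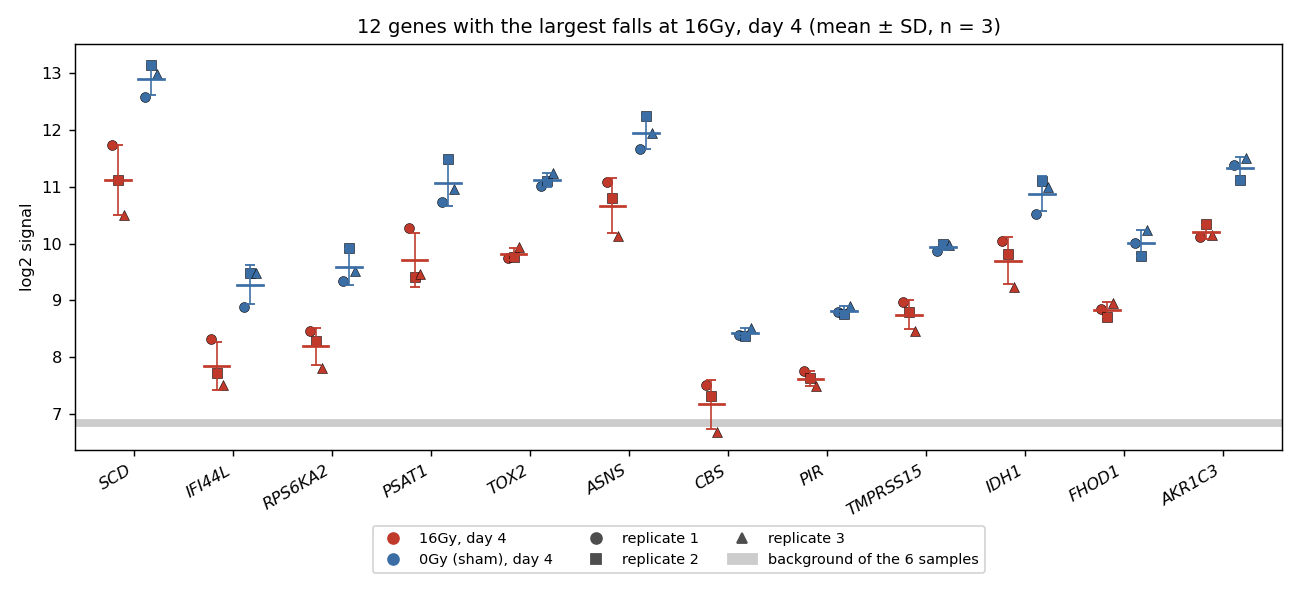
Log2 signal (y axis) of the 12 genes with the largest falls on day 4, with 16Gy samples in red to the left and 0Gy samples in blue to the right of each gene; bars are group means ± SD (n = 3), symbols are replicate numbers, and the grey band is the background of the 6 samples. Every 16Gy sample lies below every 0Gy sample for these genes, and the 16Gy sample numbered 3 is the lowest for 8 of the 12.

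Genes of amino acid supply that ATF4 controls were called lower in 8 of 31 cases, with a median of -0.45. Their mean log2 signal rose from 9.67 on day 1 to 10.44 on day 4 at 0Gy. At 16Gy it rose less, from 9.73 to 10.13. ASNS, asparagine synthetase, measured 11.09, 10.80 and 10.13 at 16Gy and 11.67, 12.24 and 11.95 at 0Gy, a difference of -1.28 (standard error 0.28, adjusted p = 0.0028). PSAT1, the aminotransferase of serine synthesis, measured 10.27, 9.41 and 9.46 at 16Gy and 10.73, 11.49 and 10.97 at 0Gy. PHGDH, which makes the first step of that pathway, measured 12.68, 12.74 and 12.44 at 16Gy and 13.50, 13.68 and 13.68 at 0Gy. In each of the 3 genes all 16Gy samples were below all sham samples. SHMT2 (-0.66), the tRNA synthetase genes WARS1 (-0.79) and AARS1 (-0.68), the glutamine transporter gene SLC1A5 (-0.61) and NUPR1 (-0.67) were the others. ATF3 and DDIT3, also ATF4 targets, were called higher instead, at 1.98 and 0.84. Several of these calls rested on single samples: AARS1 was not called without the 16Gy sample numbered 3 (-0.56), SHMT2 without the sham sample numbered 3 (-0.58), SLC1A5 without the 16Gy or the sham sample numbered 2 (-0.56 and -0.58), DDIT3 in 4 of 6 omissions (0.75 to 0.86), all but those of 16Gy sample 2 and sham sample 1, and NUPR1 in 5 of 6 (-0.72 to -0.55), all but that of sham sample 2. ATF4 mRNA itself overlapped between groups, at 12.54, 11.99 and 11.79 at 16Gy and 11.62, 12.75 and 12.58 at 0Gy (adjusted p = 0.65). CBS, which makes cystathionine from homocysteine, fell by 1.25 (standard error 0.23, adjusted p = 0.00048) and was above background on 2 of 3 arrays at 16Gy. The unfolded protein response list had 4 of 18 called lower, SDF2L1 (-0.79), MANF (-0.70), HYOU1 (-0.66) and CRELD2 (-0.60), the last with overlapping groups. This count was 0 without the 16Gy sample or without the sham sample numbered 3, and 1 without the 16Gy sample numbered 2 or the sham sample numbered 1; with the mean over probes it was also 1. HSPA5, the main chaperone of the endoplasmic reticulum, was not called at -0.62 (adjusted p = 0.23). The mean log2 signal of the unfolded protein response list rose from 9.44 on day 1 to 10.29 on day 4 at 0Gy. At 16Gy it rose from 9.64 to 9.98.

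The ASNS promoter (chr7:97872359-97872658, minus strand, GRCh38.p14) is shown for the element that ATF4 is known to bind there, with the match to TGATGNAA, searched on both strands, in capitals.
ASNS: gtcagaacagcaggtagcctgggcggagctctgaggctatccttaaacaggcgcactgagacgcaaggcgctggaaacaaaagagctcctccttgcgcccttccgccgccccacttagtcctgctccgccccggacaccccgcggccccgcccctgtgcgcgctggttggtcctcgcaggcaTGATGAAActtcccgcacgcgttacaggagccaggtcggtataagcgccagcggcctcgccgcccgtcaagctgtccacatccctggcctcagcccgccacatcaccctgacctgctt

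It begins 68 bases before the gene start. The motif occurs in 3.67% of all RefSeq promoters of this length and in 1.84% of those of tested genes. It was found in 6 of 143 promoters of genes called lower (4.2%) and in 3 of 255 of genes called higher (1.18%), and it was found in 3 of the 8 promoters on hand for called genes of the ATF4 list in either direction, those of ATF3 (called higher), ASNS and AARS1 (called lower). None of the 6 promoters shown held a match to both motifs.

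NRF2 is the transcription factor that answers electrophiles. Of 21 tested NRF2 targets and aldo-keto reductases, 8 were called lower and 1 higher (median -0.37), and 5 were called lower with the mean over all probes of a gene. NQO1, the quinone reductase, measured 11.32, 11.23 and 11.18 at 16Gy and 12.35, 12.16 and 12.53 at 0Gy, a difference of -1.11 (standard error 0.16, adjusted p = 1.1e-05). TKT and PGD of the pentose phosphate pathway, which supplies NADPH, fell by 1.10 and 0.94. The steroid and aldehyde reductases AKR1C3 (-1.14), AKR1C4 (-0.93), AKR1C2 (-0.90) and AKR1B10 (-0.87) fell with them, as did the transporter gene ABCC2 (-1.05). The AKR1C genes are close copies whose probes may share signal. The exception was HMOX1, heme oxygenase, at 10.85, 11.07 and 11.09 at 16Gy and 10.74, 9.94 and 10.15 at 0Gy (adjusted p = 0.042), not called without the 16Gy sample numbered 3 (0.63), the sham sample numbered 2 (0.43) or the sham sample numbered 3 (0.71). GCLM at -0.10 (adjusted p = 0.77) and TXNRD1 at -0.25 (adjusted p = 0.38), both classic NRF2 targets, were not called. IDH1, which makes NADPH in the cytosol, measured 10.05, 9.82 and 9.24 at 16Gy and 10.52, 11.11 and 11 at 0Gy. PIR, another NRF2 target, gave -1.20 (standard error 0.14, adjusted p = 4.0e-07).

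Other falls among the 12 largest were IFI44L (-1.43), the kinase gene RPS6KA2 (-1.41), TOX2 (-1.30), TMPRSS15 (-1.20) and the formin gene FHOD1 (-1.17). Some rested on the brightest probe: a second probe above background gave -0.33 for IFI44L and -0.08 for TMPRSS15. For TOX2 further probes gave -0.57 and -1.05. TOX2, a nuclear HMG-box protein, was evenly measured, at 9.74, 9.77 and 9.94 at 16Gy and 11.01, 11.11 and 11.24 at 0Gy. Of 43 interferon-stimulated genes, 1 was called higher (ISG20, an exonuclease, 0.86) and 2 lower (IFI44L and XAF1), with a median of -0.06. XAF1 (-0.60) fell short of the fold threshold without the 16Gy sample numbered 1 or 3 or the sham sample numbered 2 or 3 (-0.58 to -0.55). Of 71 respiratory chain genes and 60 import and ribosome genes 0 were called, with medians of -0.08 and -0.12. Among all genes tested 1.57% were called lower and the median was -0.03. The log2 fold change was negative for 54 of the 71 and 46 of the 60. Without the sham sample numbered 2, 2 respiratory chain genes and 1 import or ribosome gene were called lower, and without the 16Gy sample numbered 2, 1 of each. The lysosome list had 0 called higher and 2 of 33 lower, GPNMB (-0.97) and NPC1 (-0.69), neither of them called without the 16Gy sample numbered 3 (-0.66 and -0.34), GPNMB not without the sham sample numbered 3 (-0.83) and NPC1 not without the sham sample numbered 2 (-0.54).

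Hypoxia-responsive and glycolysis genes leaned upward, with 8 of 32 called and a median of 0.36. LOX, lysyl oxidase, measured 11.55, 11.86 and 11.73 at 16Gy and 9.98, 9.79 and 9.95 at 0Gy, and ADM rose by 1.08, but the count ranged from 4 to 10 when single samples were left out, and was 4 without the 16Gy sample numbered 1 or the sham sample numbered 2 and 5 without the sham sample numbered 1 or with the mean over all probes of a gene. TXNIP, an inhibitor of glucose uptake in that list, spread widely within groups, at 8.60, 10.09 and 11.24 at 16Gy and 8.15, 6.75 and 8.03 at 0Gy. Metallothioneins had 5 of 8 called higher, MT3 (1.57) and MT1G (1.34) ahead of MT1M, MT1H and MT1X, genes whose sequences are close to each other; without the 16Gy sample numbered 3 the count was 2, with MT3 at 1.00 and MT1H at 0.58, not called, and MT1X (0.59) was not called without the 16Gy sample numbered 1 or 3 or the sham sample numbered 2 (0.49 to 0.57). MT2A gave 0.10 (adjusted p = 0.62). Cyclins, kinases and inhibitors of the cell cycle had 2 of 23 called, CCNE1 and CDKN1A, with 1 without the 16Gy sample numbered 2 or the sham sample numbered 3, and 3 higher and 1 lower without the 16Gy sample numbered 1. Of 58 tested genes that the study names for these arrays, 47 were called higher and 2 lower, with a median of 1.23, but the study chose those genes on these samples, so the count is not independent evidence.

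**Figure D4:**
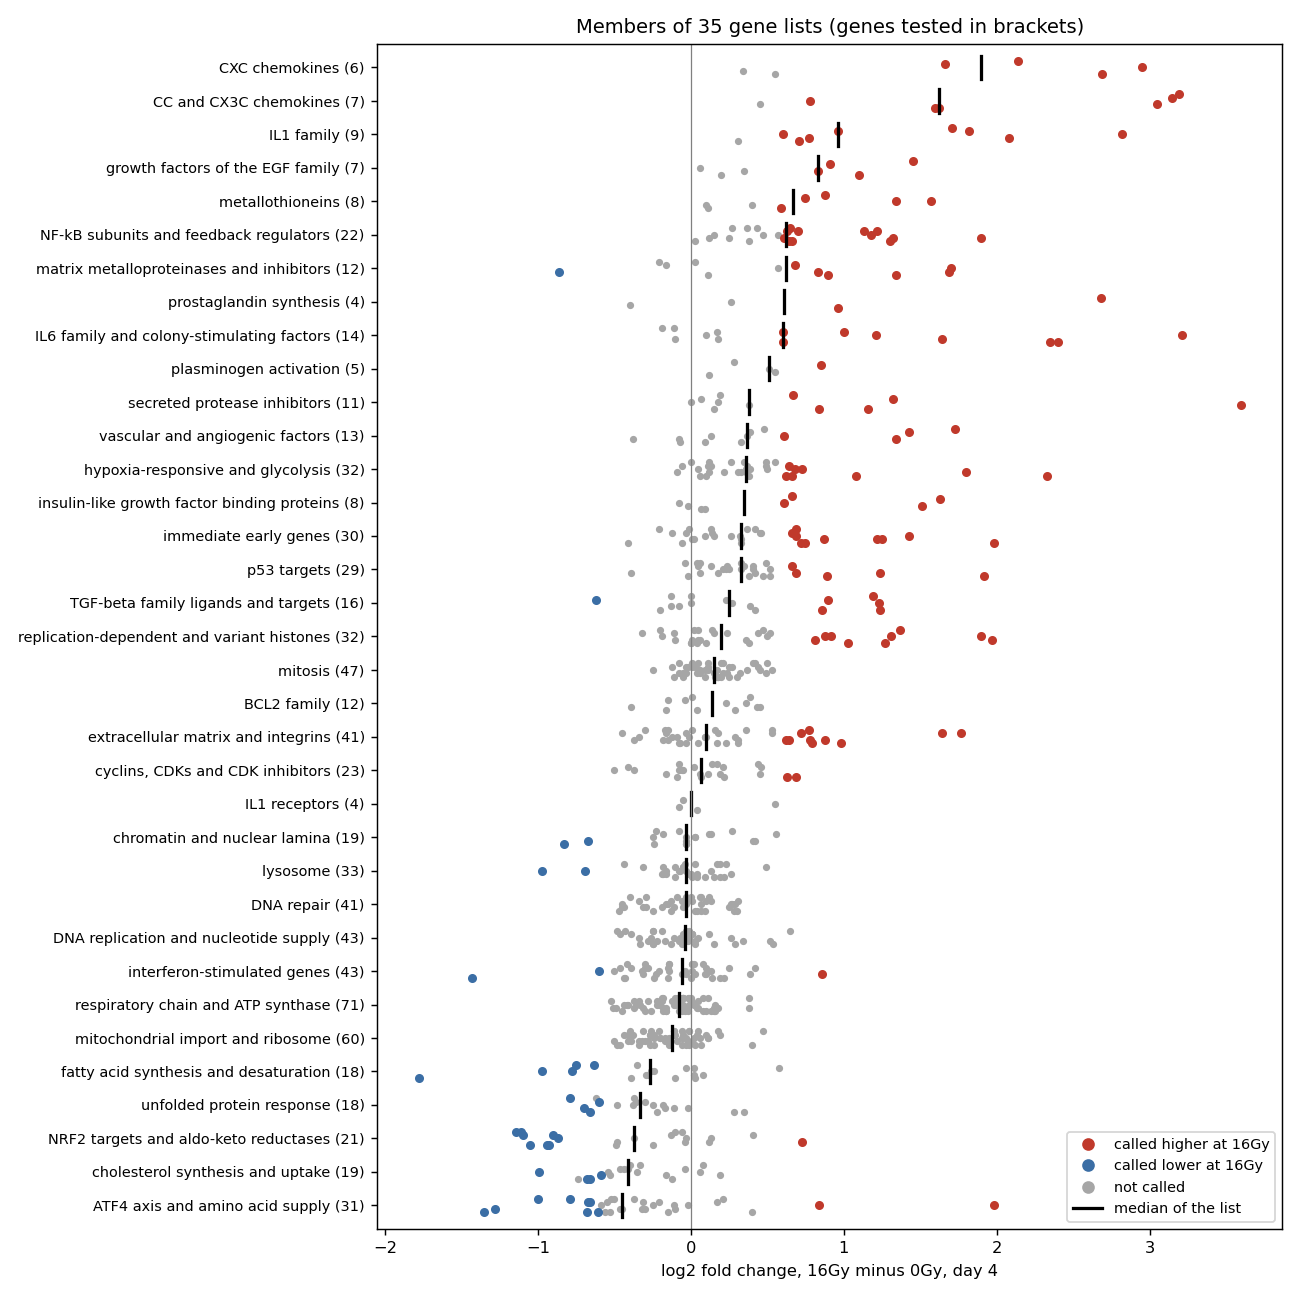
Log2 fold change of 16Gy against 0Gy on day 4 (x axis) for the tested members of each of 35 gene lists (rows, number tested in brackets), ordered by the list median (black bar). By the brightest probe of each gene, chemokine and IL1 family members lie farthest to the right, with medians of 1.90, 1.62 and 0.96. The ATF4, cholesterol and NRF2 lists lie to the left, with medians of -0.45, -0.41 and -0.37.

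The 8Gy cultures of day 4 shared the sham samples, so their differences from sham are given side by side only. At 8Gy 202 genes were called (1.79%), 168 higher and 34 lower. PI3 differed by 3.60 at 16Gy and 3.00 at 8Gy, IL6 by 3.21 and 2.95, IL1B by 2.82 and 2.47, SCD by -1.78 and -1.48, and ASNS by -1.28 and -1.24. Set directly against each other, 16Gy and 8Gy differed in 2 genes (0.0177%), while 560 genes passed at an unadjusted p under 0.05. CCL3L3 measured 9.75, 10.33 and 10.23 at 16Gy and 8.69, 9.52 and 8.21 at 8Gy, a log2 difference of 1.30 (adjusted p = 0.057). MMP12 measured 8.57, 8.19 and 8.00 at 16Gy and 7.70, 7.56 and 7.12 at 8Gy, a difference of 0.80 (adjusted p = 0.057). For IL6 the difference between doses was 0.26 with a standard error of 0.36, and for SCD it was -0.30 with a standard error of 0.30, so that differences of this size were not resolved. Both calls changed with the processing: 0 genes were called without the 16Gy sample numbered 3 and 7 without the one numbered 1.

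The 16Gy cultures of days 1 and 6 had sham samples of their own, and 138 genes passed on day 1 (1.22%) and 888 on day 6 (7.86%), the last made up of 462 higher (4.09%) and 426 lower (3.77%). Of the 527 genes of day 4, 399 were also called in the same direction on day 6, which is 75.7% of the day 4 genes and 44.9% of the day 6 genes. With day 1 the shared number was 28, or 5.31% of the day 4 genes and 20.3% of the day 1 genes, and 6 more were called in opposite directions. The 16Gy effect differed between days 4 and 1 in 521 genes (4.61%), 258 of them upward (2.28%) and 263 downward (2.33%), or 332 without the sham sample numbered 3. Between days 6 and 4 it differed in 7 (0.062%), 5 upward (0.0443%) and 2 downward (0.0177%), with 746 at an unadjusted p under 0.05, and in 0 to 9 when single samples were left out (0 without the 16Gy or the sham sample numbered 2, 1 without the 16Gy and 4 without the sham sample numbered 3). The inflammatory genes were among the first set. PI3 had a log2 fold change of 0.71 on day 1, 3.60 on day 4 and 5.18 on day 6, and its difference between days 4 and 1 was 2.89 (adjusted p = 2.3e-06). IL1 family members differed between days 4 and 1 in 7 of 9 cases, CXC chemokines in 4 of 6 and CC chemokines in 5 of 7, all with the larger rise on day 4. The p53 targets did so in 1 of 29 cases, GADD45A: CDKN1A gave 0.76, 0.69 and 0.79 on days 1, 4 and 6, and GDF15 gave 2.11, 1.24 and 1.74.

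Aldo-keto reductases turned from higher than sham on day 1 to lower than sham on day 4. Over the list of NRF2 targets and aldo-keto reductases, the mean log2 signal at 0Gy went from 9.95 on day 1 to 10.37 on day 4. At 16Gy it went from 10.07 to 9.96. AKR1C3 was called higher at 16Gy on day 1 (0.81, adjusted p = 0.0089) and lower on day 4 (-1.14) and day 6 (-1.24), and the difference between days 4 and 1 was -1.94 (adjusted p = 6.4e-06). AKR1C2, AKR1C4 and AKR1B10 gave 0.71, 0.67 and 0.68 on day 1, all called, and differences of -1.61, -1.60 and -1.56 between the days. NQO1, TKT and PGD gave -0.07, -0.03 and -0.05 on day 1 without a call. DDIT4, a stress-induced inhibitor of mTOR, was called on day 1 at 1.01 (adjusted p = 0.012) and gave -0.55 (adjusted p = 0.094) on day 4, under the fold threshold. SCD gave 0.22 on day 1 and -2.67 on day 6.

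**Figure D5:**
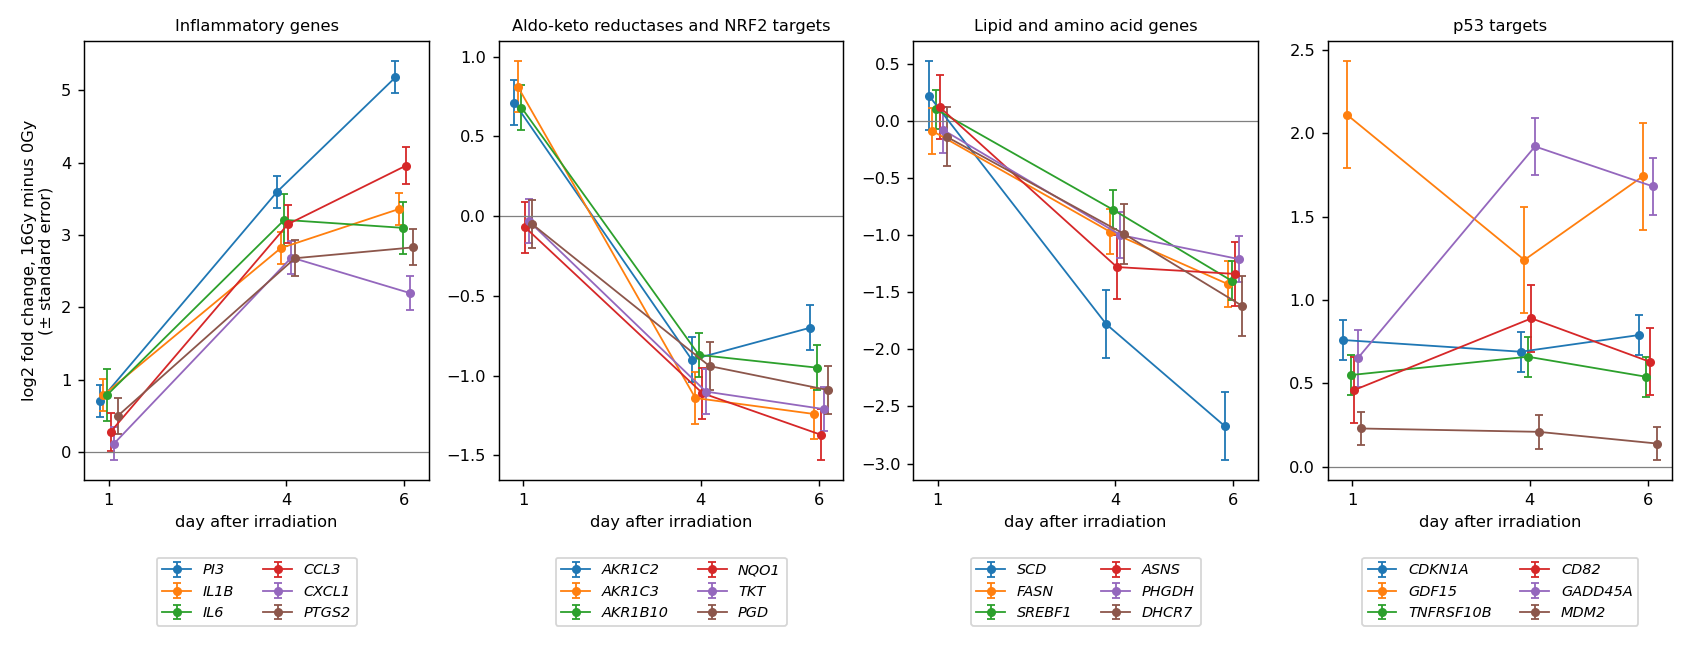
Log2 fold change of 16Gy against 0Gy of the same day (y axis, ± standard error of the limma fit, 3 samples a group) on days 1, 4 and 6 (x axis) for 6 genes in each of 4 groups. Inflammatory genes such as PI3 stand at 0.71, 3.60 and 5.18, the AKR1C genes cross from above 0 on day 1 to below 0 on day 4, and CDKN1A stays between 0.69 and 0.79.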

How the data were processed

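The 6 samples were those labelled 16Gy or 0Gy on day 4, 3 of each; the sample numbered 1 of each is the authors' mean of 2 technical runs. The authors exported signals with GenomeStudio, quantile normalized and log2 transformed the 27 short-term samples and ran ComBat for batches that are not named here; the deposited log2 values were used as they are, so any real effect shared with a batch may have been removed or spread. A second table with 96 columns of 48 arrays matched no label and was not used. Probes were named by the platform annotation and updated with RefSeq (GRCh38.p14): 30100 name 1 gene, 8 several and 17192 none. Each of 20041 genes was represented by its brightest probe on average. A gene was tested when it exceeded all but a share under 0.05 of 455 olfactory receptor probes in every sample of at least 1 of 12 groups, which left 11296. A gene dim in sham cells could thus be tested through an irradiated group. Counts of lists that hold such genes depend in part on this filter. Arrays give no counts, and their number limits the precision.

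Calculations used limma 3.58.1 under R 4.3.3. The 27 short-term samples were fitted together, with a coefficient per group and a block for replicate number, and variances were moderated by empirical Bayes with a trend over mean signal; every adjusted p is from it (Benjamini-Hochberg over all genes tested). The script was tested on simulated data. Alternatives changed the block, the samples fitted, the filter, a floor, the probe rule, centring, the trend and the test, and left out each sample. With 3 against 3 samples an exact permutation test of 1 gene cannot go below p = 0.10, so none is given. Where no array of a group was above background, the fold is a lower limit against the background level. Named genes are the 12 largest rises and falls called in the same direction in all 3 same-numbered pairs, genes the study names, called and prominent members of 35 gene lists and 7 marker lists, and genes called between doses or days. Members and lists were chosen with earlier results of these data known.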

Additional observations from a re-analysis of the deposited data

Results flagged for a closer look

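The effect of 16Gy differed between day 4 and day 1 in 521 genes and between day 6 and day 4 in 7 genes, tested as the difference of the 2 effects in the limma fit. Of the 24 genes with the largest changes on day 4, 23 differed from day 1. The differences, day 4 minus day 1 on the log2 scale, were 2.89 for PI3, 2.42 for IL6, 2.91 for CCL3L3, 2.87 for CCL3, 2.87 for CCL20, 2.40 for CXCL2, 2.03 for IL1B, 2.57 for CXCL1, 2.18 for PTGS2, 2.32 for CCL3L1, 2.24 for SLC25A24 and 2.31 for DEFB103A. Among the falls they were -2.0 for SCD, -1.21 for IFI44L, -1.27 for RPS6KA2, -1.44 for TOX2, -1.40 for ASNS, -1.41 for CBS, -0.99 for PIR, -0.97 for TMPRSS15, -1.37 for IDH1, -1.10 for FHOD1 and -1.94 for AKR1C3. PSAT1 was the exception (-1.14, adjusted p = 0.12). PI3 also rose further between day 4 and day 6, by 1.58 (adjusted p = 0.066). The other 6 genes that differed between days 6 and 4 were CXCL5 (1.31), ESM1 (1.36), SERPINB4 (1.33), GNG11 (0.87), ASPM (-1.54) and ANGPT1 (-0.93).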

How the results depend on the processing

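On day 4, the 527 called genes numbered 395 to 536 under other filters, floors, probe rules, scalings and fits, of which the mean over all probes gave the lowest count, and 429 to 656 when single samples were left out. When single samples were left out, the 350 higher genes numbered 300 to 403 and the 177 lower genes 129 to 264. With the mean over all probes of a gene, 276 were called higher and 119 lower. The methods' one-way analysis of variance over 12 groups with Bonferroni-Holm adjustment and the same fold gave 244 genes, and with Benjamini-Hochberg adjustment 503. Of 174 called genes named in the text or lists, none reversed, 104 kept their call in every alternative, and 120 in every leave-one-out. All 24 genes with the largest changes kept theirs when any sample was left out.

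The 2 genes between 16Gy and 8Gy became 0 without a replicate block, 7 and 0 with day 4 samples alone with and without the block, 4 with no filter, 0 with the mean over probes, 0 with no mean-variance trend, and 0 to 7 leaving out 1 sample (7 when 16Gy replicate 1 was omitted, 0 for 16Gy replicate 3); in limma, 274 to 1032 genes passed at an unadjusted p under 0.05 in these settings. The 7 genes between days 6 and 4 became 0 with no replicate block, the mean over probes or no trend, and 0 to 9 leaving out 1 sample (0 for 16Gy or 0Gy replicate 2, 1 for 16Gy replicate 3, 4 for 0Gy replicate 3), with 501 to 1160 at an unadjusted p under 0.05. The 521 genes between days 4 and 1 ranged from 332, without 0Gy replicate 3, to 542 when single samples were left out. The cause of these shifts was not tested.

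Same-numbered 16Gy and 0Gy samples of day 4 deviated from their group means with correlations of -0.579, -0.156 and -0.175 across genes, which did not meet the criterion for pairing. Some lists did move with the number: on days 4 and 6 replicate 3 had the highest mean mitosis signal and the lowest mean IL1 family signal in all 6 groups, and the authors had corrected the values for batch, so whether a number marks a shared experiment was not settled. Without the replicate block 523 genes were called, 522 of them the same. Small list counts also moved: with the mean over all probes 1 cyclin, kinase or inhibitor gene was called higher and 1 interferon-stimulated gene lower. Without 16Gy replicate 3 or 0Gy replicate 2 or 3, 1 interferon-stimulated gene was likewise called lower. A chromatin gene was called higher (1) without 16Gy replicate 3 or 0Gy replicate 2, a lysosome gene (1) without 16Gy replicate 3, and a fatty acid gene (1) without 16Gy replicate 2 or 0Gy replicate 1 or 2. The sham sample numbered 3 was the lowest of its group for 236 of the 350 higher genes, and the 16Gy sample numbered 3 for 121 of the 177 lower ones.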

Other observations

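Beyond the listed families, 372 of the 527 called genes stood on none of the 35 lists. DEFB103A, a beta-defensin of skin and airway with near-identical copies, was one of the 12 largest rises, at 9.07, 9.41 and 9.61 at 16Gy and 7.36, 7.11 and 6.37 at 0Gy. SLC25A24, a mitochondrial carrier for ATP and magnesium, measured 9.78, 10.49 and 10.33 at 16Gy and 8.00, 8.14 and 6.97 at 0Gy. Its probes disagreed, however, since a second probe above background gave -0.20, and which transcripts each probe reads was not tested. Of 184 second probes above background for 153 called genes, 173 had the same sign as the gene's main probe, 73 of them past the fold threshold, and 11 had the opposite sign.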
